A study of Mus musculus with 6 samples.

Results

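The MAP kinase, serine/threonine kinase and protein phosphatase genes described here were chosen by gene symbol. Their symbols start with Map2k, Map3k, Map4k, Mapk, Dusp, Ptpn, Ptpr, Ppp1 to Ppp6, Spry, Spred, Rps6k, Prka, Prkc, Prkd, Camk, or with Stk or Akt and a digit. They number 76 of the 4162 genes in the deposited count table. GENCODE M21 holds 277 protein-coding genes with such symbols, and 75 of them were listed. The member beyond these is Ppp4r1l-ps, annotated as a pseudogene, and the other genes that match were not analysed here. RNA sequencing compared CD4+ T cells from the spleen of 3 WT mice and 3 UTX TCD mice on a B6 background. In UTX TCD mice the T cells lack UTX, a demethylase of histone H3K27 and the product of Kdm6a. The sources used here do not give what drives the deletion, the deleted exons or the age of the mice. Naive cells of both genotypes were isolated with a magnetic kit and stimulated for 48 h with antibodies to CD3 on the plate and to CD28 in solution, so every library comes from activated cells.

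When the T cell receptor and CD28 are engaged, lipid and calcium messengers activate protein kinase C, calcineurin and calmodulin-dependent kinases, and the exchange factor RasGRP1 starts the Ras, Raf, MEK and ERK chain. MAP kinases are switched on by kinases stacked above them, the MAP4K, MAP3K and MAP2K tiers. They are switched off by phosphatases, among them the dual-specificity phosphatases encoded by Dusp genes, several of which ERK itself induces. Sprouty and Spred proteins also restrain the Ras to ERK chain, and tyrosine phosphatases of the Ptpn and Ptpr families act on the receptor-proximal tyrosine kinases and on MAP kinases.

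Levels are in CPM, counts scaled by the TMM-adjusted library total of the listed genes. Each log2 fold change sets UTX TCD against WT and is followed by its standard error from edgeR. Total counts per library ran from 8363326 to 10288306. Kdm6a was at 286, 281 and 281 CPM in WT replicates 1 to 3 and at 188, 207 and 179 CPM in UTX TCD replicates 1 to 3, or -0.56 ± 0.09 as log2 fold change (edgeR adjusted p = 0.0029). These counts cover the whole gene, so reads from exons that were not deleted are included. Of the T cell markers, 5 of 14 were listed, with summed levels of 4346 to 4592 CPM in WT and 4936 to 5877 CPM in UTX TCD libraries. Cd28, Bcl11b and Cd2 were higher, Lck did not pass, and Thy1 went from 809 ± 85.1 to 56.8 ± 18.3 CPM (mean ± SD, n = 3; -3.83 ± 0.23, edgeR adjusted p = 1.9e-04). Genes of the CD3 complex and Cd4 were not analysed here, nor were the 8 B cell and 15 myeloid and dendritic markers. Of 2 CD8 T cell markers 1 was listed, Cd8b1, at 11.6, 14.5 and 12.8 CPM in WT and 31.5, 56.2 and 40.8 CPM in UTX TCD libraries. Of 10 erythroid, platelet and stroma markers 1 was listed, Pecam1, at 113, 117 and 138 CPM in WT and 206, 369 and 324 CPM in UTX TCD libraries. The other markers of both lists were not analysed here. The 3 of 7 listed NK and gamma delta T cell markers summed to 24.2 to 64.2 CPM in WT and 28.3 to 56.8 CPM in UTX TCD libraries, mostly from Eomes. Among them Tcrg-C1, a gamma delta T cell receptor gene, was higher, at 0.198, 0.325 and 0.568 CPM in WT and 2.05, 2.33 and 2.40 CPM in UTX TCD libraries (2.61 ± 0.47, edgeR adjusted p = 0.005). Its WT libraries held very few reads and lay below the low-count filter. Tcrg-C1 was therefore tested only because of its UTX TCD libraries. Markers of regulatory T cells moved with genotype: 8 of 9 were listed, 7 were higher and Nrp1 was lower. None of the 8 was at 0. Their summed level was 2692 to 2911 CPM in WT and 3734 to 5291 CPM in UTX TCD libraries, mostly from Il2ra. Il2ra went from 1945 ± 73.2 CPM in WT to 3098 ± 606 CPM in UTX TCD libraries (mean ± SD, n = 3). Foxp3 was at a far lower level and went from 5.45 ± 0.892 to 27.9 ± 5.33 CPM. What part these marker differences have in the kinase and phosphatase values was not tested. In bulk RNA, fewer cells of a type and less RNA per cell cannot be told apart.

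The fold changes show a table chosen by its difference between genotypes, which bears on each count given here. Among 4118 tested genes only 20 had a log2 fold change within 0.1 of 0, and of the kinase and phosphatase genes only 2 did, Ppp4r3a and Ppp4r3b. A gene of these families with no difference between genotypes would therefore mostly be missing from the table, and the share of members called describes the listed genes alone. The gap in the fold changes lay not at 0 but at 0.075 on the log2 scale, so the split of calls between higher and lower depends on the scaling between libraries.

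**Figure D1:**
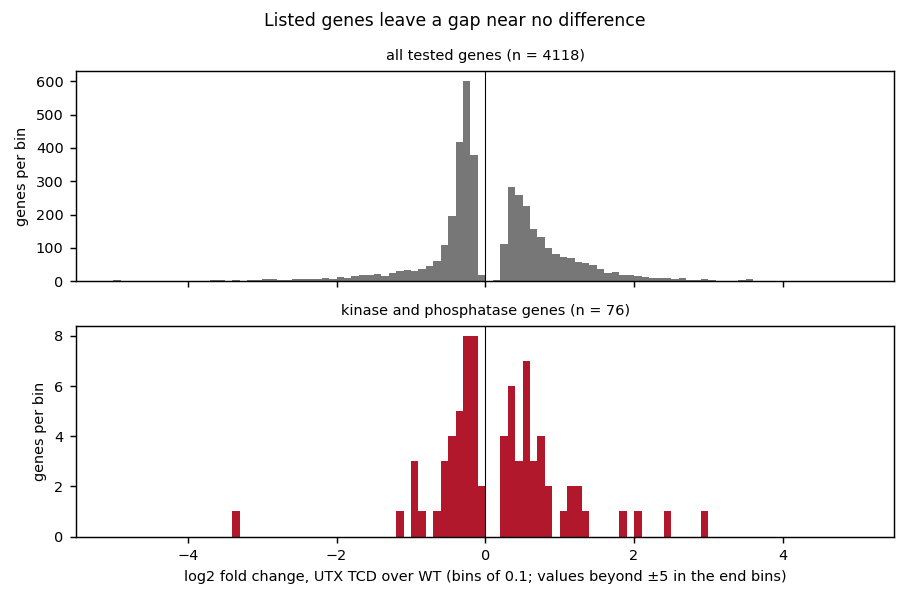
Number of genes in bins of 0.1 along the log2 fold change, UTX TCD over WT, for all 4118 tested genes (upper) and the 76 kinase and phosphatase genes (lower). Both distributions have a gap just above 0, where the upper panel holds 1 and 5 genes in the bins starting at 0 and 0.1 and the lower panel holds none.

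Kinase and phosphatase genes went both ways. All 76 passed the low-count filter, Prkar1b only through its UTX TCD libraries. At an edgeR adjusted p under 0.05, 36 were higher, 19 were lower and 21 did not pass. Over all tested genes 68.1% were called, 41.1% higher and 27% lower, against 72.4% of the members, 47.4% higher and 25% lower, so these shares lie near those of the table. The median log2 fold change was 0.25 over the members and -0.15 over all tested genes. Few genes lay near 0, so a small shift in the share above 0 can move a median across the gap. At least 2-fold differences were found in 9 higher and 2 lower members (11.8% and 2.63%), against 530 higher and 273 lower of all tested genes (12.9% and 6.63%). Rises of that size were those of Prkar1b, Rps6ka6, Ptpn14, Ptprf, Ppp3ca, Ppp1r3b, Mapk3, Map3k9 and Ppp1r26, and the falls were those of Ptpn5 and Ptpn13. The genotypes did not overlap in 66 members, 37 higher and 29 lower in UTX TCD cells, where 85.8% of all tested genes did not overlap (41.8% higher and 44% lower).

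The count of calls varied with single libraries. Leaving out any 1 library left 16 to 35 higher and 6 to 25 lower members, with the lowest counts when a WT library was removed (16 and 7 for WT replicate 1, 17 and 6 for WT replicate 2, 22 and 11 for WT replicate 3). In 20 members the call held whichever library was left out, a share that was not computed over all tested genes. The 14 higher ones were Map3k1, Map4k2, Mapk3, Rps6ka6, Ptpn14, Ptprf, Ppp3ca, Ppp6r2, Camk1d, Prkce, Prkd2, Prkar1b, Prkaa1 and Stk17b, and the 6 lower ones were Dusp2, Ptpn5, Ptpn13, Ptprj, Ppp1r10 and Rps6ka1. Another adjustment counted all 21951 protein-coding genes of GENCODE M21 as tests, and so also those outside the table. It left 13 members higher and 4 lower, against 630 and 296 of all 4118 tested genes. All 17 members are among the 20 just named, from which Ptpn14, Ppp1r10 and Rps6ka1 dropped out. Prkar1b, in both sets, passed the low-count filter only through its UTX TCD libraries. Of the calls, 65.5% were higher with TMM scaling and 54.1% once the gap was centred on 0 (33 higher and 28 lower). Over all tested genes the same shares were 60.4% and 45.8%, so most calls of the table were lower once the gap was centred (1547 higher and 1832 lower). Upper-quartile scaling gave 73.1% for the members and 70.6% for all tested genes. No member changed direction under any alternative tried, but in a table chosen by the genotype difference few members lay near enough to 0 to do so. UTX TCD replicate 2 was the extreme library: among UTX TCD libraries it held the highest value in 27 of the 36 higher members and the lowest in 14 of the 19 lower ones. The same held across the table, where it was highest in 1206 of 1692 higher and lowest in 779 of 1111 lower genes. Without it, 34 members were higher and 25 lower.

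**Figure D2:**
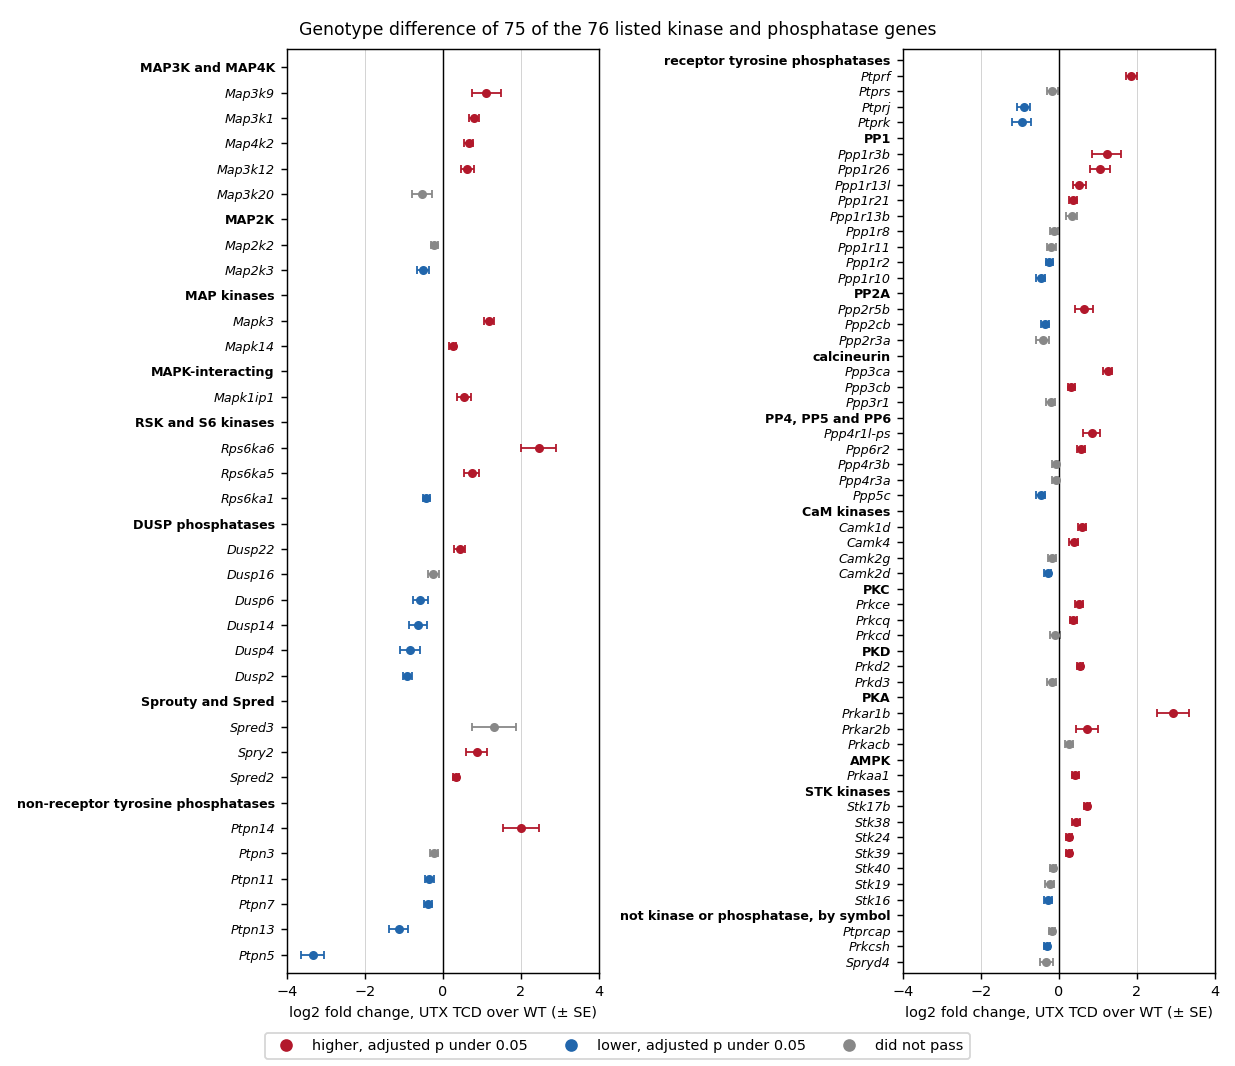
Log2 fold change, UTX TCD over WT, of 75 of the 76 kinase and phosphatase genes by family, with bars of 1 standard error. Red points are the 35 higher, blue points the 19 lower and grey points the 21 genes that did not pass. Ptpn5 lies farthest to the left at -3.35 and Prkar1b farthest to the right at 2.93.

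The upper tiers of the MAP kinase cascade were mostly higher in UTX TCD cells. Of 5 listed MAP3K and MAP4K genes, 4 rose and Map3k20 did not pass, with a family median of 0.66. The share of all tested genes called higher was 41.1%. With any 1 WT library left out, or with every protein-coding gene counted as a test, 2 genes of this family were higher. Map3k1, which encodes MEKK1, an activator of the JNK branch, was at 221, 240.5 and 271 CPM in WT replicates 1 to 3 and at 362, 496 and 409.7 CPM in UTX TCD replicates 1 to 3. The lowest UTX TCD library lay above the highest WT library, and the log2 fold change was 0.79 ± 0.14 (edgeR adjusted p = 0.0043). Map4k2, the germinal centre kinase, was at 321, 315 and 359.9 CPM in WT and 457, 598 and 515 CPM in UTX TCD libraries (0.66 ± 0.12, edgeR adjusted p = 0.0048), also without overlap. For both genes UTX TCD replicate 2 was the highest library. Map3k12, a mixed-lineage kinase known as DLK, rose by 0.62 ± 0.17. It shares 1573 exonic bases with Pcbp2 on the other strand, so that its counts are uncertain if the counting ignored strand. Map3k9 had few reads, with 18 to 21 counts in WT and 28 to 62 counts in UTX TCD libraries (1.12 ± 0.37). Its call was lost without UTX TCD replicate 2 (0.73) or WT replicates 1, 2 or 3 (1.01, 1.18 and 1.14), and that of Map3k12 without WT replicates 1, 2 or 3 (0.68, 0.60 and 0.58). Map3k20, the stress-sensing kinase ZAK, was at 71.5, 69.5 and 61.5 CPM in WT and 56.0, 55.7 and 27.6 CPM in UTX TCD libraries. Its groups did not overlap, but the difference did not pass (-0.54 ± 0.25, edgeR adjusted p = 0.082). It was called lower with the replicate block (-0.60), and without UTX TCD replicate 3, its lowest library, the value was -0.28.

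In the next tier, 1 of the 2 listed MAP2K genes fell. Map2k3, which encodes the p38 activator MKK3, was at 381, 385 and 361 CPM in WT and 301, 198 and 287 CPM in UTX TCD libraries. It fell by 0.52 ± 0.15 on the log2 scale (edgeR adjusted p = 0.022), with UTX TCD replicate 2 the lowest of all libraries. This call was lost without WT replicates 1, 2 or 3 (-0.51, -0.51 and -0.55). Map2k2, which encodes the ERK activator MEK2, was at -0.22 ± 0.10 (edgeR adjusted p = 0.067) and did not pass, but its groups did not overlap. It was called lower with gap-centred scaling (-0.30) and when UTX TCD replicate 1 (-0.28) or 2 (-0.15) was left out.

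Of the MAP kinases themselves, 2 were listed and both were higher. Mapk3, the gene of ERK1 (ENSMUSG00000063065, chromosome 7 from 126759601 to 126765819 in GRCm38), was at 55.7, 58.2 and 68.3 CPM in WT replicates 1 to 3 and at 118, 157 and 136 CPM in UTX TCD replicates 1 to 3. Every UTX TCD library was well above every WT library, a 2.26-fold rise (1.17 ± 0.13, edgeR adjusted p = 0.0013). Without UTX TCD replicate 2 its log2 fold change was 1.06. Mapk14, the gene of p38 alpha, rose less, from 354 ± 16.4 to 420.1 ± 21.1 CPM (mean ± SD, n = 3), and was called only by a narrow margin (0.25 ± 0.08, edgeR adjusted p = 0.032). Its call was lost with gap-centred scaling (0.17), without WT replicates 1, 2 or 3 (0.21, 0.25 and 0.27) and without UTX TCD replicate 3 (0.21). With the replicate block it was at 0.25 and did not pass. The JNK genes Mapk8 and Mapk9 were not analysed here. Mapk1ip1, named for an interaction with a MAP kinase, rose by 0.54 ± 0.17, and its call was lost without WT replicates 1 (0.44) or 2 (0.52) or UTX TCD replicate 3 (0.54).

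The ERK-activated S6 kinases split by member. Rps6ka1, which encodes RSK1, was at 489.9, 501 and 579 CPM in WT and 366, 415 and 387 CPM in UTX TCD libraries. The groups did not overlap, and it fell by 0.43 ± 0.10 (edgeR adjusted p = 0.01). Rps6ka5, the gene of MSK1, a nuclear kinase of histone H3 and CREB, was higher at 16.5, 15.2 and 13.4 CPM in WT and 21.7, 29.9 and 23.9 CPM in UTX TCD libraries (0.74 ± 0.19, edgeR adjusted p = 0.016). That call was lost without WT replicates 2 (0.74) or 3 (0.66). Rps6ka6, which encodes RSK4 and lies on chromosome X, had 18, 14 and 12 counts in WT and 110, 79 and 42 counts in UTX TCD replicates 1 to 3. Its level rose from 1.55 ± 0.213 to 8.66 ± 4.45 CPM (2.46 ± 0.45, edgeR adjusted p = 0.0052). UTX TCD replicate 1 was the highest library and replicate 3 the lowest of the 3, still above WT. Per kilobase of exon, RSK4 messages reached 1.73 CPM in UTX TCD cells, while Rps6ka1 messages were at 91.4 CPM per kilobase.

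**Figure D3:**
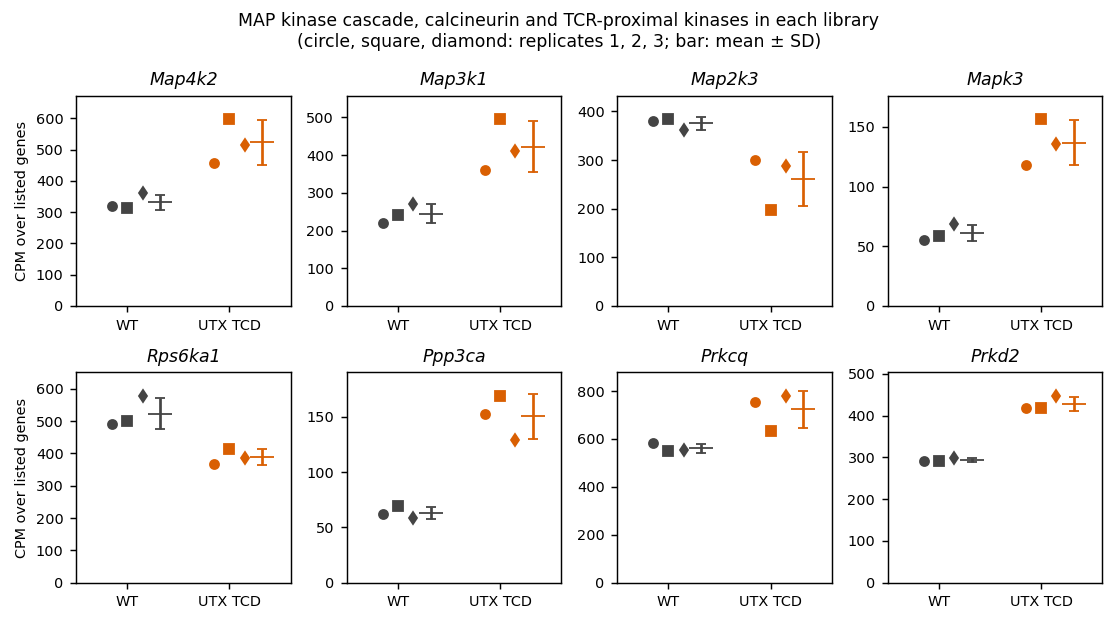
CPM over the listed genes (vertical axis, from 0) of 8 kinase and phosphatase genes in each of the 3 WT (grey) and 3 UTX TCD (orange) libraries, with mean ± SD beside the points. Map4k2, Map3k1, Mapk3, Ppp3ca, Prkcq and Prkd2 are higher and Map2k3 and Rps6ka1 lower in all 3 UTX TCD libraries than in any WT library.

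Dusp genes, which encode dual-specificity phosphatases, were mostly lower. Of 24 annotated protein-coding Dusp genes 6 were listed, of which 4 fell, 1 rose and Dusp16 did not pass, with a median of -0.62. Across all tested genes 27% were lower and 41.1% higher. Dusp2, which encodes the nuclear phosphatase PAC-1 of activated lymphocytes, was at 572, 629.7 and 576 CPM in WT replicates 1 to 3 and at 325, 271 and 345 CPM in UTX TCD replicates 1 to 3. The groups were far apart, and its level dropped 1.89-fold (-0.92 ± 0.11, edgeR adjusted p = 0.0014). Dusp4, a nuclear phosphatase induced by ERK, was at 582, 536 and 468 CPM in WT and 278, 410.0 and 189.8 CPM in UTX TCD libraries (-0.85 ± 0.25, edgeR adjusted p = 0.022). Here UTX TCD replicate 2 lay closest to WT, and without it the log2 fold change was -1.18. Dusp6, the cytoplasmic phosphatase that acts on ERK, was at 567, 618 and 508 CPM in WT and 466, 264 and 400.1 CPM in UTX TCD libraries (-0.58 ± 0.20, edgeR adjusted p = 0.032). In Dusp6 UTX TCD replicate 2 was instead the lowest library, and the value without it was -0.39. Dusp14, a small phosphatase that dampens T cell receptor signals, was at 27.2, 26.2 and 27.2 CPM in WT and 13.7, 23.7 and 14.1 CPM in UTX TCD libraries (-0.65 ± 0.24, edgeR adjusted p = 0.042).

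Only Dusp2 kept its call whichever library was left out. Lower Dusp genes numbered 1 without WT replicate 1 or 2, 2 without WT replicate 3 or UTX TCD replicate 3, and 5 when UTX TCD replicate 2 was left out. There was 1 under that wider adjustment. The calls were lost for Dusp4 without WT replicates 1 (-0.78) or 2 (-0.85), and for Dusp6 without WT replicates 1, 2 or 3 or UTX TCD replicate 3 (-0.58, -0.52, -0.66 and -0.63). Dusp14 did not pass without WT replicates 1, 2 or 3 (-0.64, -0.67 and -0.64) or UTX TCD replicates 1 or 3 (-0.50 and -0.52), nor with RLE (-0.60) or upper-quartile scaling (-0.56). Dusp16, which acts on JNK and p38, was at -0.25 ± 0.14 with overlapping groups, and was called lower without UTX TCD replicate 2 (-0.36). Dusp22, an atypical phosphatase that dephosphorylates the kinase Lck, was the higher member at 31.0, 32.5 and 33.6 CPM in WT and 38.8, 48.4 and 42.9 CPM in UTX TCD libraries (0.42 ± 0.14, edgeR adjusted p = 0.029). It did not pass without WT replicates 1, 2 or 3 (0.39, 0.42 and 0.45) or UTX TCD replicate 3 (0.43).

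Upstream sequences of 3 of the 4 lower Dusp genes, Dusp2, Dusp6 and Dusp14 but not Dusp4, are shown because these genes fell together and because the series' title frames the study around hypoxia sensing. Each run gives the 250 bases before the transcription start in RefSeq (GRCm38.p6), 5′ to 3′ on the strand of the gene. The windows are chr2:127335909-127336158 on the plus strand for Dusp2, chr10:99262981-99263230 on the plus strand for Dusp6 and chr11:84068358-84068607 on the minus strand for Dusp14. Capitals mark matches on either strand to 4 motifs: the core of the hypoxia response element (ACGTG or GCGTG), AP-1 (TGANTCA), the cyclic AMP response element (TGACGTCA) and an ETS site (CCGGAA).
Dusp2: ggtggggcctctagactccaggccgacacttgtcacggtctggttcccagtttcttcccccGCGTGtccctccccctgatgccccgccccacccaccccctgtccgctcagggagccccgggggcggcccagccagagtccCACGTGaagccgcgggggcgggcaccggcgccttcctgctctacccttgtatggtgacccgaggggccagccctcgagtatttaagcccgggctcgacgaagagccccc
Dusp6: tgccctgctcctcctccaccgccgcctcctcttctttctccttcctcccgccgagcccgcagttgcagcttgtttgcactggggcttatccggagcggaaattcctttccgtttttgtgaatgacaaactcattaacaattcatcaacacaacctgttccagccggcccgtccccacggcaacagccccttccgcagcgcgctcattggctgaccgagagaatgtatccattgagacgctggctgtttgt
Dusp14: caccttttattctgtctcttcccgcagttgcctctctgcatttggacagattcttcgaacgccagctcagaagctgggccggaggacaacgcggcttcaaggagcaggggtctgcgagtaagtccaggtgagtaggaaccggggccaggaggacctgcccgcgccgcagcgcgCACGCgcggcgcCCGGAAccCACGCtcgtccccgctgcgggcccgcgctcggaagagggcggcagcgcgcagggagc
Dusp2 holds the hypoxia core 189 bases before its start and, 109 bases before it, the palindrome CACGTG, which matches the core on both strands and is also an E-box. Dusp14 holds the hypoxia core 77 and 57 bases before its start, both times on the strand opposite to the gene, so that the printed letters read CACGC, with an ETS site between them, and Dusp6 holds none of the 4. The same search over windows from 250 bases before to 50 after the start found the hypoxia core in 43.8% of all 32851 promoters of that length and in 57% of 86 promoters of 62 member genes. It was present in 59.5% of 37 promoters of higher, 47.8% of 23 promoters of lower and 61.5% of 26 promoters of members that did not pass. The ETS site was present in 17.4% of member promoters and 14.9% of all, the cyclic AMP element in 2.33% and 1.79%, and AP-1 in 0% and 7.81%. These 32851 promoters also cover genes outside the table, and a gene with several promoters counts once for each. The same shares over the promoters of listed genes alone were not computed. A match to such short letters is a description and not a binding site.

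Sprouty and Spred genes went the other way from most Dusp genes. Of 3 listed, 2 were higher and Spred3 did not pass, with a median of 0.87, where 41.1% of all tested genes were higher. Spry2 encodes an inhibitor of the Ras to ERK chain. It was at 16.9, 13.7 and 10.2 CPM in WT replicates 1 to 3 and 19.3, 33.0 and 22.2 CPM in UTX TCD replicates 1 to 3. The lowest UTX TCD library lay 2.34 CPM above the highest WT library, and the log2 fold change was 0.87 ± 0.28 (edgeR adjusted p = 0.028). The call was lost without UTX TCD replicate 2 (0.60) and without WT replicates 2 (0.86) or 3 (0.69). Spred2, which blocks Raf activation, had narrow groups at 174, 172 and 173 CPM in WT and 226, 224 and 208 CPM in UTX TCD libraries (0.34 ± 0.08, edgeR adjusted p = 0.0099). It was not called without WT replicates 1 (0.34) or 2 (0.33). Spred3 was at 4.66, 1.95 and 3.86 CPM in WT and 5.18, 16.4 and 4.48 CPM in UTX TCD libraries, so that the difference rested on UTX TCD replicate 2 (1.31 ± 0.57, edgeR adjusted p = 0.067, and 0.45 without that library). DESeq2 called it higher (1.36), as did edgeR after leaving out UTX TCD replicates 1 (1.59) or 3 (1.63).

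**Figure D4:**
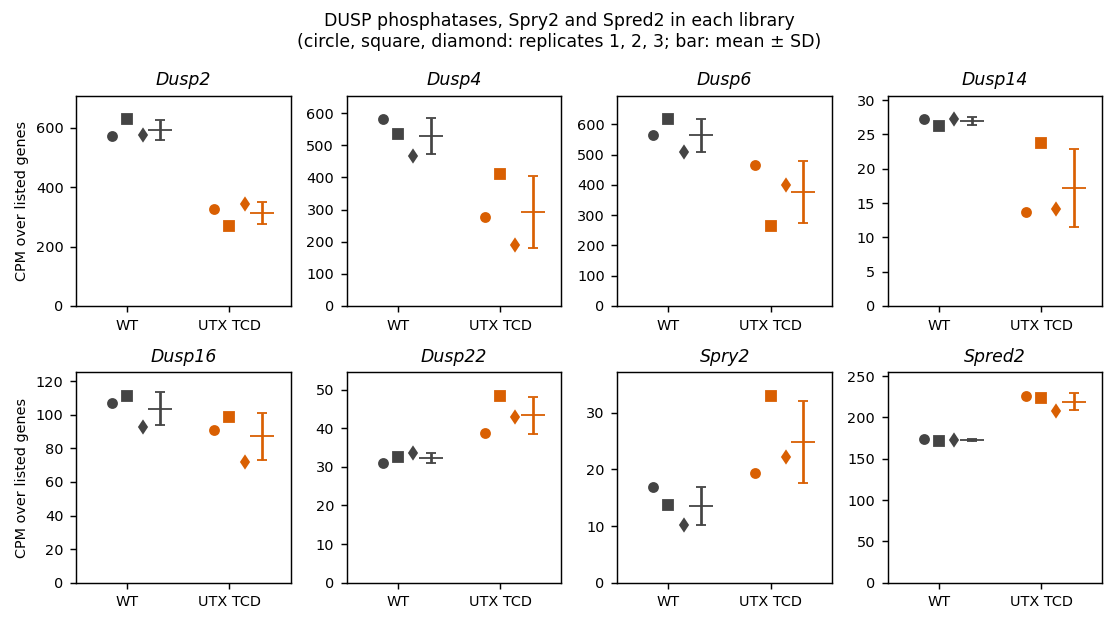
CPM over the listed genes (vertical axis, from 0) of the 6 listed Dusp genes, Spry2 and Spred2 in each WT (grey) and UTX TCD (orange) library, with mean ± SD. Dusp2, Dusp4, Dusp6 and Dusp14 are lower in all 3 UTX TCD libraries, Dusp22, Spry2 and Spred2 are higher, and Dusp16 overlaps.

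Genes around the cascade that are no members were counted from fixed lists. Over all tested genes 41.1% were higher and 27% lower. Of 26 genes of the ERK-induced immediate early and feedback list 16 were tested, of which 8 were lower, Btg2 was higher and 7 did not pass, at a median of -0.41. Those that did not pass were Egr1 (-0.19), Junb (-0.28), Srf (-0.34), Etv5 (-0.28), Phlda1 (-0.31), Ier3 (-0.77) and, upward, Fosl2 (0.52). The list includes Jund, Elk3 and Srf, and whether ERK induces each of its genes in these cells was not tested. Ier5 went from 237 ± 8.58 to 152 ± 10.6 CPM (-0.64 ± 0.09, edgeR adjusted p = 0.0021), Jund, an AP-1 subunit, from 466 ± 23.5 to 316 ± 15.2 CPM (-0.56 ± 0.08, 0.0027), and Ier2 from 526 ± 17.1 to 379 ± 27.5 CPM (-0.47 ± 0.09, 0.0051). Btg2, an antiproliferative gene, went from 139 ± 7.58 to 202 ± 34.2 CPM (0.53 ± 0.13), a call lost without WT replicate 1 and under the adjustment over all protein-coding genes. The lower genes of this list numbered 4, 3 and 5 without WT replicates 1, 2 and 3, 5 without UTX TCD replicate 3, and 3 under that wider adjustment. Of 34 genes of the list from the T cell receptor to Ras and Raf, 15 were tested, 9 of them higher and 4 lower (median 0.38). The exchange factor genes Rasgrp1 and Rasgrp2 rose by 0.84 ± 0.12 and 2.82 ± 0.30, while Ksr1, the scaffold that holds Raf and MEK together, and Rasal1, a Ras GTPase-activating protein, were at -1.02 ± 0.09 and -1.09 ± 0.15. Higher genes of this list numbered 5 without WT replicate 1, 4 without WT replicate 2 and 4 under that wider adjustment. Fos and Jun were not analysed here.

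Protein tyrosine phosphatases held the largest fall among the members. Of 6 Ptpn genes 4 fell, Ptpn14 rose and Ptpn3 did not pass (median -0.37), and of 4 Ptpr genes 2 fell, Ptprf rose and Ptprs did not pass (median -0.54). In the table as a whole 27% of tested genes were lower and 41.1% higher. Ptpn5 encodes STEP, a phosphatase of ERK and p38 best known from neurons. It lies on chromosome 7 from 47077795 to 47133684 (ENSMUSG00000030854, GRCm38). Its level was 82.5, 54.8 and 58.8 CPM in WT replicates 1 to 3 and 8.44, 6.66 and 4.17 CPM in UTX TCD replicates 1 to 3, from 833, 505 and 518 counts to 70, 63 and 40 counts. Every UTX TCD library was far below every WT library, a 10.2-fold drop (-3.35 ± 0.29, edgeR adjusted p = 5.3e-04), and the value with any 1 library left out was -3.59 to -3.12. Ptpn7, the haematopoietic phosphatase of ERK and p38, fell less. Its WT level per kilobase of exon was 148 CPM, against 11.3 CPM for Ptpn5. It was at 896, 916 and 894 CPM in WT and 747, 595 and 726 CPM in UTX TCD libraries (-0.39 ± 0.10, edgeR adjusted p = 0.016). Without WT replicates 1 (-0.40) or 2 (-0.38) it was not called.

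Ptpn11, which encodes SHP2, a phosphatase that promotes Ras signalling and also acts downstream of inhibitory receptors, was at 887, 911 and 885 CPM in WT and 770.3, 573 and 759 CPM in UTX TCD libraries (-0.35 ± 0.12, edgeR adjusted p = 0.034). UTX TCD replicate 2 was its lowest library, and without it the value was -0.23. It was not called without WT replicates 1, 2 or 3 (-0.36, -0.34 and -0.36) or with upper-quartile scaling (-0.28). Ptpn13, a large phosphatase with FERM and PDZ domains, fell from 11.0 ± 0.641 to 4.99 ± 0.937 CPM (-1.14 ± 0.24, edgeR adjusted p = 0.008). Ptpn14, a relative with a FERM domain, went the opposite way, at 5.05, 8.35 and 6.47 CPM in WT and 29.3, 40.0 and 10.4 CPM in UTX TCD libraries (2.00 ± 0.47, edgeR adjusted p = 0.012). Its UTX TCD libraries spread widely, with replicate 3 near the highest WT library. Ptpn3 was at -0.24 ± 0.10 and did not pass (edgeR adjusted p = 0.059), though its groups did not overlap. Centring the gap (-0.32) or leaving out UTX TCD replicate 1 (-0.32) made it a lower call.

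Among receptor-type phosphatases, Ptprf, the gene of the adhesion-type receptor LAR, was at 20.2, 24.7 and 19.2 CPM in WT replicates 1 to 3 and 80.5, 82.4 and 69.8 CPM in UTX TCD replicates 1 to 3. The 3 UTX TCD libraries lay close together and all above WT, a 3.63-fold rise (1.86 ± 0.15, edgeR adjusted p = 4.7e-04) that ranged from 1.78 to 1.97 on the log2 scale with any 1 library left out. Ptprj, which encodes CD148, a phosphatase of Src-family kinases, was lower at 47.4, 49.3 and 40.1 CPM in WT and 28.1, 22.3 and 22.3 CPM in UTX TCD libraries (-0.91 ± 0.16, edgeR adjusted p = 0.0046). Ptprk, of the adhesion-type receptors, fell from 10.4 ± 1.57 to 5.34 ± 0.616 CPM (-0.96 ± 0.24, edgeR adjusted p = 0.014), and was not called without WT replicate 2 (-0.86). Ptprs overlapped between genotypes, at 739, 743 and 672 CPM in WT and 734, 514 and 668 CPM in UTX TCD libraries (-0.17 ± 0.13, edgeR adjusted p = 0.25). Ptprc, the gene of CD45, and Ptpn6, Ptpn2 and Ptpn22 were not analysed here.

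**Figure D5:**
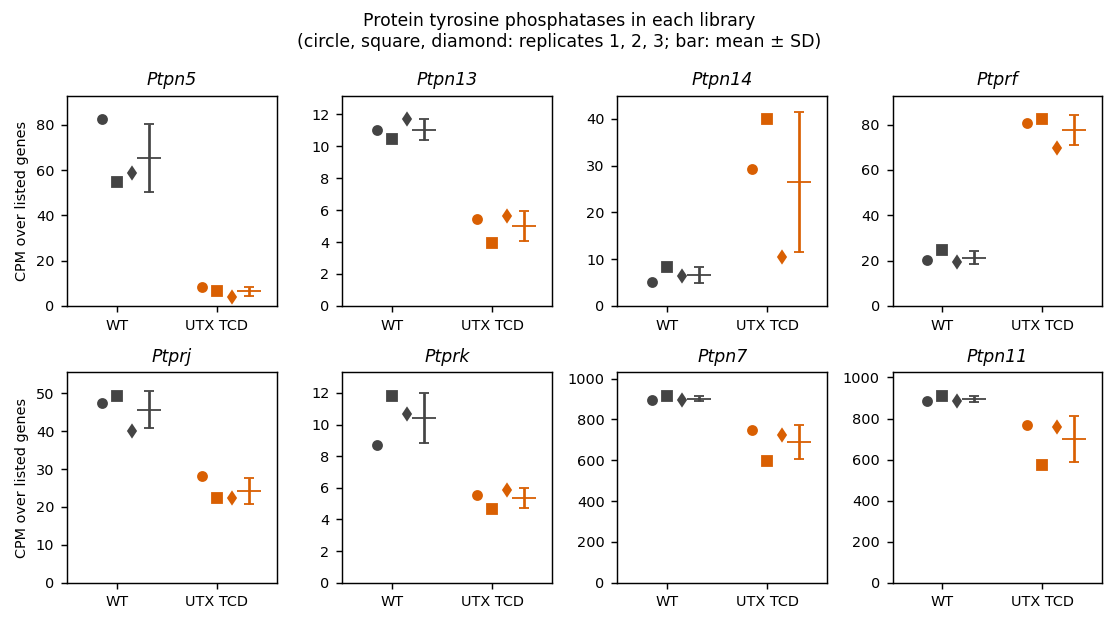
CPM over the listed genes (vertical axis, from 0) of 8 protein tyrosine phosphatase genes in each WT (grey) and UTX TCD (orange) library, with mean ± SD. Ptpn14 and Ptprf are higher and the other 6 lower in all 3 UTX TCD libraries than in any WT library.

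Calcineurin, the calcium-activated phosphatase that frees NFAT to enter the nucleus, had higher catalytic subunit genes. Ppp3ca was at 61.9, 69.5 and 58.8 CPM in WT replicates 1 to 3 and 153, 169 and 129 CPM in UTX TCD replicates 1 to 3, with every UTX TCD library above every WT library (2.37-fold, 1.25 ± 0.13, edgeR adjusted p = 7.7e-04). Ppp3cb, the other listed catalytic gene, with 37.8 CPM per kilobase of exon in WT cells against 6.35 for Ppp3ca, was at 327, 364 and 308 CPM in WT and 399, 427 and 415 CPM in UTX TCD libraries (0.31 ± 0.09, edgeR adjusted p = 0.021). It was not called without WT replicates 1 (0.30) or 3 (0.26). Ppp3r1, the regulatory subunit gene, was at 469, 465 and 399 CPM in WT and 441, 353 and 356 CPM in UTX TCD libraries, which overlapped (-0.21 ± 0.12, edgeR adjusted p = 0.12). It was called lower with gap-centred scaling (-0.29) and without UTX TCD replicate 1 (-0.32). Of 14 genes of the calcineurin target and NFAT list 4 were tested. Rcan3, an inhibitor of calcineurin, and Homer3, which competes with calcineurin for NFAT, rose by 0.69 ± 0.09 and 1.43 ± 0.24, Nfatc2 was lower at -0.43 ± 0.09, and Nfat5 did not pass. Without UTX TCD replicate 2 the lower genes of this list numbered 2.

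Calmodulin-dependent kinases divided by type. Camk1d rose from 60.0 ± 4.74 to 89.5 ± 4.11 CPM (0.58 ± 0.10, edgeR adjusted p = 0.0049) with no overlap. Camk4, a nuclear kinase of CREB in T cells, was at 237, 235 and 219 CPM in WT and 292, 348 and 259.7 CPM in UTX TCD libraries (0.38 ± 0.12, edgeR adjusted p = 0.025), and at 0.25 without UTX TCD replicate 2, its highest library. Camk2d fell by 0.29 ± 0.09 to 198, 197 and 217 CPM in UTX TCD replicates 1 to 3 (edgeR adjusted p = 0.022), and Camk2g was at -0.18 ± 0.10 and did not pass. Without WT replicates 1, 2 or 3, Camk4 (0.40, 0.39 and 0.34) and Camk2d (-0.34, -0.26 and -0.30) were not called, and Camk2d also lost its call with upper-quartile scaling (-0.21). Camk2g was called lower with gap-centred scaling (-0.26) and when UTX TCD replicate 2 was left out (-0.23).

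Protein kinase C and D genes rose or did not pass. Prkcq, the gene of PKC theta, which links the T cell receptor and CD28 to NF-kB, was at 583, 549 and 553 CPM in WT and 755, 635 and 781 CPM in UTX TCD libraries (0.36 ± 0.10, edgeR adjusted p = 0.017). Its UTX TCD libraries all exceeded WT, with replicate 2 the lowest of them, and it was not called without WT replicates 1, 2 or 3 (0.39, 0.34 and 0.35). Prkce, a diacylglycerol-responsive PKC, rose from 46.5 ± 1.09 to 66.2 ± 4.29 CPM (0.51 ± 0.11, edgeR adjusted p = 0.0078). Prkd2, which encodes the main protein kinase D of T cells, had tight groups at 291, 293 and 299 CPM in WT and 417, 418 and 448 CPM in UTX TCD libraries (0.54 ± 0.08, edgeR adjusted p = 0.0024). Prkcd and Prkd3 overlapped between genotypes, at -0.11 ± 0.13 and -0.19 ± 0.12, and Prkcd was called lower without UTX TCD replicate 2 (-0.26).

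Regulatory subunits of protein phosphatase 1 made up the largest family, with 9 members, of which 4 rose, 2 fell and 3 did not pass (median 0.32). All tested genes together were called higher in 41.1% and lower in 27%. Ppp1r10, which encodes the nuclear targeting subunit PNUTS, was at 472, 459 and 431 CPM in WT and 373, 287 and 321 CPM in UTX TCD libraries (-0.47 ± 0.11, edgeR adjusted p = 0.011). Ppp1r2, the gene of an inhibitor subunit, fell by 0.25 ± 0.09 (edgeR adjusted p = 0.041). Ppp1r3b, which brings the phosphatase to glycogen, was at 8.32, 9.54 and 9.19 CPM in WT and 11.7, 33.0 and 18.3 CPM in UTX TCD libraries (1.22 ± 0.37, edgeR adjusted p = 0.023, and 0.73 without UTX TCD replicate 2). Ppp1r26 was at 9.61, 10.2 and 8.74 CPM in WT and 13.5, 25.6 and 20.1 CPM in UTX TCD libraries (1.05 ± 0.26, edgeR adjusted p = 0.014). Ppp1r13l, the gene of iASPP, an inhibitor of p53, and Ppp1r21 rose by 0.52 ± 0.16 and 0.35 ± 0.10. All 4 rises lost their call without WT replicate 1 (1.16, 1.06, 0.55 and 0.34 for Ppp1r3b, Ppp1r26, Ppp1r13l and Ppp1r21). Without WT replicate 2 those of Ppp1r3b (1.26), Ppp1r13l (0.40) and Ppp1r21 (0.30) were lost. Ppp1r3b was also not called without WT replicate 3 (1.23), nor Ppp1r13l without UTX TCD replicates 1 (0.45) or 3 (0.53). The call of Ppp1r2 was lost without WT replicates 1, 2 or 3 or UTX TCD replicate 3 (-0.28, -0.23, -0.24 and -0.27), with RLE (-0.20) or upper-quartile scaling (-0.17), with DESeq2 (-0.21) and with the replicate block (-0.25). Ppp1r8, a nuclear inhibitor gene, and Ppp1r11 did not pass at -0.14 ± 0.10 and -0.20 ± 0.12. Ppp1r13b, the gene of ASPP1, did not pass at 0.32 ± 0.13 and was called higher with RLE (0.37) or upper-quartile scaling (0.40) and with DESeq2 (0.36).

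Ppp2cb and Ppp5c, the listed catalytic genes of other serine/threonine phosphatases, were lower, but neither was called under the adjustment over all protein-coding genes. Other catalytic genes of these families were not analysed here. Ppp2cb, a catalytic subunit gene of PP2A, was at 382, 389 and 369.8 CPM in WT and 312, 253 and 322 CPM in UTX TCD libraries (-0.36 ± 0.11, edgeR adjusted p = 0.022). Ppp5c, which encodes the HSP90-bound phosphatase PP5, was at 734, 693 and 663 CPM in WT and 558, 419.8 and 529 CPM in UTX TCD libraries (-0.47 ± 0.12, edgeR adjusted p = 0.014). In both genes UTX TCD replicate 2 was the lowest library. Their calls were lost without WT replicates 1 and 2 in turn (-0.36 and -0.35 for Ppp2cb, -0.44 and -0.48 for Ppp5c), and for Ppp2cb also without WT replicate 3 (-0.39). Of the PP2A regulatory subunit genes, Ppp2r5b rose by 0.63 ± 0.23 and Ppp2r3a did not pass at -0.42 ± 0.17. Ppp2r5b was not called without UTX TCD replicate 2 (0.39) or without WT replicates 1, 2 or 3 (0.62, 0.67 and 0.60), and Ppp2r3a was called lower with limma-voom (-0.42) and gap-centred scaling (-0.49). Ppp6r2, a PP6 subunit gene, rose from 44.2 ± 3.82 to 65.3 ± 2.71 CPM (0.56 ± 0.11, edgeR adjusted p = 0.0073) with no overlap. The PP4 subunit genes Ppp4r3a and Ppp4r3b, close paralogues, lay nearest to no difference at -0.09 ± 0.09 and -0.09 ± 0.09. The pseudogene Ppp4r1l-ps rose by 0.84 ± 0.22, was not called without WT replicates 1 (0.78) or 2 (0.86), and its counts are uncertain because reads can match its parent gene.

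Kinases of cyclic AMP, energy and growth signalling were higher where called. Prkar1b, a regulatory subunit gene of protein kinase A, had 6, 9 and 8 counts in WT and 33, 78 and 65 counts in UTX TCD replicates 1 to 3. That is 0.594, 0.976 and 0.908 CPM in WT and 3.98, 8.24 and 6.77 CPM in UTX TCD libraries, the largest rise among the members and one from a very low level (7.62-fold, 2.93 ± 0.41, edgeR adjusted p = 0.0024). Each WT count was below the minimum count of 10 of the low-count filter. The gene was therefore tested only because of its UTX TCD libraries, where it is high. Prkar2b was called with overlapping groups (0.72 ± 0.28, edgeR adjusted p = 0.049) and lost its call without any 1 library except UTX TCD replicate 2 (at 0.59, 0.91 and 0.67 with WT replicates 1, 2 and 3 removed, and at 0.77 and 0.48 with UTX TCD replicates 1 and 3 removed). It also did not pass with the replicate block (0.71) or gap-centred scaling (0.65). The catalytic subunit gene Prkacb was at 328, 356 and 344 CPM in WT and 411, 364 and 457 CPM in UTX TCD libraries and just missed the threshold (0.26 ± 0.10, edgeR adjusted p = 0.0501). It was called higher without UTX TCD replicate 2 (0.33), with RLE (0.31) or upper-quartile scaling (0.34) and with DESeq2 (0.30).

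Prkaa1, the catalytic AMPK subunit gene of T cells, was at 146, 138 and 129 CPM in WT and 191, 188 and 171 CPM in UTX TCD libraries, which did not overlap (0.42 ± 0.09, edgeR adjusted p = 0.0081). Rps6kb1, the gene of an S6 kinase, was not analysed here. Of 34 genes of the PI3K, AKT and mTOR list 13 were tested, 10 of them higher and 3 not passing (median 0.56). Over all tested genes 41.1% were higher and 27% lower. With gap-centred scaling 2 genes of this list were called lower, leaving out UTX TCD replicate 2 also gave 2, and leaving out UTX TCD replicate 1 gave 1. The higher genes had opposite roles: Pik3cd, the catalytic subunit of PI3K delta, rose by 0.74 ± 0.13 and Pik3r2, a regulatory subunit, by 0.55 ± 0.10, but so did Inpp4b, a phosphatase of PI3K products (0.83 ± 0.09), and Sesn3, a sestrin that restrains mTORC1 (1.10 ± 0.12).

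Genes with Stk symbols come from several branches, among them those of the sterile-20 kinases. Of 7 listed, 4 rose, 1 fell and 2 did not pass (median 0.25), against 41.1% higher and 27% lower over all tested genes. Stk17b, which encodes DRAK2, a kinase that sets the threshold of T cell receptor signals, was at 466, 479 and 450.0 CPM in WT replicates 1 to 3 and 732, 832 and 731 CPM in UTX TCD replicates 1 to 3. The groups were well apart (0.72 ± 0.09, edgeR adjusted p = 0.0014), and the value ranged from 0.65 to 0.75 with any 1 library left out. Stk38, an NDR kinase, was at 217, 221 and 233 CPM in WT and 265, 340.1 and 301 CPM in UTX TCD libraries (0.43 ± 0.11, edgeR adjusted p = 0.013). Stk24 and Stk39, the genes of MST3 and SPAK, rose by 0.26 ± 0.07 and 0.25 ± 0.08. Without WT replicates 1 and 2 in turn the calls of Stk38 (0.41 and 0.42), Stk24 (0.25 and 0.26) and Stk39 (0.22 and 0.25) were lost. Without WT replicate 3, Stk24 (0.25) and Stk39 (0.26) also did not pass, and Stk39 did not with the gap centred on 0 (0.17) or with UTX TCD replicate 3 left out (0.25). Stk16 fell by 0.28 ± 0.09. It shares 1379 exonic bases with Tuba4a on the other strand, and its call was lost without WT replicates 1, 2 or 3 (-0.27, -0.28 and -0.31), with RLE (-0.24) or upper-quartile scaling (-0.21) and with DESeq2 (-0.24). Stk19 and Stk40 did not pass at -0.24 ± 0.11 and -0.15 ± 0.08, although in neither did the groups overlap. Both were called lower with gap-centred scaling (-0.31 and -0.23), and Stk40 also without UTX TCD replicate 2 (-0.19).

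A further 3 members match the symbols but belong to none of the families above, and none of these 3 encodes a kinase or phosphatase. Prkcsh, a glucosidase subunit of the endoplasmic reticulum, fell by 0.30 ± 0.08, and was not called without WT replicates 1 (-0.30) or 2 (-0.29). Ptprcap, a protein that binds CD45, was at 613, 603 and 644 CPM in WT and 529, 534 and 565 CPM in UTX TCD libraries and just missed the threshold (-0.19 ± 0.08, edgeR adjusted p = 0.052). It was called lower with gap-centred scaling (-0.27), with no low-count filter (-0.20) and without UTX TCD replicate 2 (-0.19). It shares 1224 exonic bases with Rps6kb2 on the other strand. Spryd4, a SPRY domain gene unrelated to Sprouty, did not pass at -0.33 ± 0.16 and was called lower with gap-centred scaling (-0.40). Exons of 18 of the 76 members overlap a gene on the other strand.

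Levels per kilobase of exon give an order among the members. In WT cells Ptprcap was highest with 385 CPM per kilobase, followed by Dusp2 (296), Ppp2cb (259), Ppp5c (222), Dusp4 (193) and Dusp6 (180.2). In UTX TCD cells the 3 Dusp genes were at 157, 107 and 120.2 CPM per kilobase. The lowest members were Prkar1b at 0.217, Rps6ka6 at 0.310 and Map3k9 at 0.351 CPM per kilobase in WT cells. These are levels relative to exon length as annotated, and a cell that uses a shorter isoform would have a higher value. Members varied less between WT mice than between UTX TCD mice: the median coefficient of variation of a member was 6.59% over WT libraries and 12.0% over UTX TCD libraries, against 5.97% and 14.3% over all tested genes. The summed level of the 76 members was 17465 to 18082 CPM in WT and 16843 to 17735 CPM in UTX TCD libraries, so the groups overlapped in the total.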

How the data were processed

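RNA sequencing was done on CD4+ T cells of 6 mice, 3 WT and 3 UTX TCD, with each column tied to its sample by genotype and number in the title. The values deposited by the authors are raw counts of reads per gene. FastQC, HISAT2, HTSeq and the build mm10 are named, per the submitters' processing notes. The sources used here do not give versions, annotation, strand setting or the rule that selected the listed genes. Selection on the genotype difference makes adjusted p-values too small, since too few tests are counted.

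Genotypes were compared by edgeR's quasi-likelihood test (edgeR 4.0.16, R 4.3.3) on genotype alone, with a low-count filter (minimum count 10, minimum total 15, which left out 44 genes), TMM scaling and Benjamini-Hochberg adjustment over 4118 genes. Genes are called at an adjusted p under 0.05. Alternatives used limma 3.58.1, DESeq2 1.42.0, other scalings, no filter, a replicate block and leaving out each library. Standard errors are the absolute log2 fold change over the square root of F. CPM are relative to the listed genes. Chi-square per degree of freedom between replicates was 7.09 to 87.7, so none was a duplicate.

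Members, gene lists and tests were chosen with earlier results of these data known. Named are a fixed panel, the 10 largest rises and falls among called members without overlap and an average log2 CPM of at least 2, up to 6 called members per family and up to 4 genes per pathway list with the smallest p. Other members were named after their values were seen: Spred3, Map3k20, Dusp16, Camk2g, Prkcd, Prkd3, Prkacb, Ppp3r1, Ptpn3, Ptprs, Ppp1r8, Ppp1r11, Ppp1r13b, Ppp2r3a, Ppp4r3a, Ppp4r3b, Stk19, Stk40, Ptprcap and Spryd4. Promoters come from RefSeq tables of GRCm38.p6, gene positions and exon lengths from GENCODE M21, which matched all 76 symbols. The values of 1 higher member, which the counts include, are not reported here.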

Additional observations from a re-analysis of the deposited data

How the results depend on the processing

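With any 1 library left out, genes called higher numbered 730 to 1824 and lower 351 to 1458 of the table, against 1692 and 1111 with all 6, and members called higher 16 to 35 and lower 6 to 25, against 36 and 19. With every protein-coding gene counted as a test, 630 genes were higher and 296 lower, of which 13 and 4 were members. Upper-quartile scaling gave 725 lower genes and gap-centred scaling 1832. Among the members, 38 lost their call with every protein-coding gene counted, 32, 32 and 22 without WT replicates 1, 2 and 3, and none changed direction under any of the 14 alternatives. Few members lay near enough to 0 for a change of direction. DESeq2 called 39 members higher and 17 lower, limma-voom 36 and 20, and no low-count filter gave 36 and 20. Replicate numbers were not taken to pair the mice: deviations of same-numbered libraries correlated at 0.279, -0.281 and 0.18 for numbers 1, 2 and 3. With the replicate block 1607 genes were higher and 1026 lower, of which 34 and 19 were members, and it ended the calls of Mapk14 (0.25), Prkar2b (0.71) and Ppp1r2 (-0.25) and made one for Map3k20 (-0.60). Depth limits the members with few reads, such as Prkar1b (6 to 9 counts per WT library).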
